A study of Mus musculus with 2 samples.

Results

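Gap junction genes were examined in organoids grown from mouse pituitary, as the 6 connexin genes Gja1, Gjb1, Gjb2, Gjb5, Gjb6 and Gjc1 and the pannexin gene Panx1. These are the 7 rows of the deposited table, out of 20647 gene rows, whose gene name is one of those symbols. The study sequenced RNA from 2 libraries, 1 of cystic and 1 of dense organoids, which are clusters of cells that grow in culture from tissue. The cystic culture was derived from a male GHCre/iDTR mouse aged 10 weeks and sampled at passage 2. The dense culture was derived from a male -/iDTR mouse of the same age and sampled at passage 4. Both cultures were kept in PitOM medium, and both mice carried iDTR, an allele in which Cre activates a diphtheria toxin receptor. GHCre, a Cre transgene named for growth hormone, was present in the cystic culture's mouse only, and no toxin treatment is named in the labels used here. Organoid type, passage and mouse therefore cannot be told apart, and no test between conditions was possible with 1 library of each.

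Connexins are membrane proteins that assemble into hexameric hemichannels, and the hemichannels of neighbouring cells dock to form gap junctions, through which ions and small metabolites pass between cells. The connexins expressed by a cell set which channels it can form and which neighbours it can couple to. Pannexins resemble connexins in membrane layout but act mainly as single-membrane channels that release ATP. In the pituitary, gap junctions couple the folliculostellate cells, the non-hormonal support cells of the anterior lobe, into a network, and Cx43 is their main connexin. In stratified epithelia such as the epidermis, Cx43 is widespread, and Cx26 and Cx30 are known for their increase in wounded and hyperproliferative skin.

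The 4 members with more reads in the dense library by at least 10-fold were Gja1, Gjb2, Gjb5 and Gjb6. Their promoters are shown so that the sequence ahead of each start can be read beside the values. Sequences are the 250 bases before the annotated start, 5′ to 3′ on the gene's strand, from RefSeq in build GRCm38.p6, which is not the build named for the deposited values. Capitals mark matches on either strand to 1 of 4 motifs, AP-1 (TGANTCA), the GC box (GGGCGG), the TATA box (TATAAA) and the Grainyhead-like motif (AACNGGTT).
Gja1, chr10:56377050-56377299, plus strand: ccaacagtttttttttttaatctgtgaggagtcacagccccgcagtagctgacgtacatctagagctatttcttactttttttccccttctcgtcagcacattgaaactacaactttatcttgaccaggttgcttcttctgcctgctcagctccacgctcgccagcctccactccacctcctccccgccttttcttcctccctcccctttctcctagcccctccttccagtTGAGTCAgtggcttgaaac
Gjb2, chr14:57104703-57104952, minus strand: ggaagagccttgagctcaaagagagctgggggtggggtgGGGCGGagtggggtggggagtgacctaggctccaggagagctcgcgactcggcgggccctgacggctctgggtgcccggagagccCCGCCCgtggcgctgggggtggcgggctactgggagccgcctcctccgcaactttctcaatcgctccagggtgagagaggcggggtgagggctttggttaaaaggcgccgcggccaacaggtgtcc
Gjb5, chr4:127358165-127358414, minus strand: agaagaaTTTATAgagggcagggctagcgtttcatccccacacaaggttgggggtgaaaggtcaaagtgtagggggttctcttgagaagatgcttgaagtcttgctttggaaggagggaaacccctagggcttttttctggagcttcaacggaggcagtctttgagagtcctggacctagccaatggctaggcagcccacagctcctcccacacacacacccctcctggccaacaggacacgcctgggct
Gjb6, chr14:57133612-57133861, minus strand: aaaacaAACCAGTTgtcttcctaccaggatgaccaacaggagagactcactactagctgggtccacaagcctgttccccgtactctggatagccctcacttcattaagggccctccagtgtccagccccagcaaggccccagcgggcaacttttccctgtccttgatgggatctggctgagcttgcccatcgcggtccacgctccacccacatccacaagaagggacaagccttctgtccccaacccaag

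The Gja1 window held 1 AP-1 match, TGAGTCA, whose far end lay 19 bases before the start, and no other match. An AP-1 match was present in 6.75% of the 32851 RefSeq windows of the same length. The Gjb2 window held GC boxes at 211 and 126 bases before the start, and 32.7% of all windows held at least 1. The Gjb5 window held a reversed TATA box 243 bases before the start, against 12.4% of all windows with a TATA box on either strand. The Gjb6 window held a Grainyhead-like match 244 bases before the start, a motif found in 1.79% of all windows. No motif of the 4 was shared between these 4 windows. The Gjb2 window had 69.2% G and C and 18 CpG sites, against medians of 52.4% and 6 over all windows. Gja1 had 6 CpG sites, Gjb5 had 3 and Gjb6 had 5. Of the 7 genes, 6 had a promoter entry. The Panx1 window had 17 CpG sites and none of the 4 motifs. A Gjb1 window held 3 GC boxes and a TATA box 29 bases before the start. The other Gjb1 windows held none of the 4 motifs. A match is a run of letters and not a measured binding site.

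Sequencing gave 17247431 gene reads for cystic organoids and 19258313 for dense organoids. Values are normalized counts, in which 1 read is worth 1.05 for cystic and 0.956 for dense organoids. Brackets give exact 95% intervals for counting error only, and they leave out the spread between cultures or mice. Of the marker lists, the 10 stratified epithelial genes summed to 463 in cystic, against 416588 in dense organoids. Of 9 with a mean of at least 50, 8 were at least 4-fold lower in cystic organoids. Among all genes with such a mean, 7.65% were. The 6 simple epithelial genes summed to 118868 in cystic, against 32607 in dense organoids. Of these, 4 passed 4-fold in favour of cystic organoids, as did 7.86% of all genes with a mean of at least 50. Of the pituitary markers, Sox2 had 2790 in cystic, against 3885 in dense organoids, Pitx1 had 1276 in cystic, against 5614 in dense organoids, and Lhx3 had 172 in cystic and no read in dense organoids. Of 8 pituitary stem cell markers with a mean of at least 50, 3 passed 4-fold as higher and 1 as lower in cystic organoids. The shares over all genes with such a mean were 7.86% and 7.65%. The 9 hormone cell markers summed to 4319.6 in cystic, against 739.8 in dense organoids. Endothelial and mural markers summed to 87.9 in cystic, against 4.78 in dense organoids over 7 genes, of which all but Pecam1 had no read in dense organoids, and fibroblast markers to 112 in cystic, against 14.3 in dense organoids, over 6 genes. Of 5 immune markers, which summed to 422 in cystic, against 3142 in dense organoids, Cd68 was the only one with a mean of at least 50, with 373 in cystic, against 3123 in dense organoids. Aif1 went the other way, with 47.1 in cystic organoids and none of its reads in dense organoids, and Ptprc had 1 read in cystic and none in dense organoids. The part of these differences in the connexin values was not tested. None of the 7 gap junction genes shares annotated exon bases with another gene. In bulk RNA, fewer cells of a type and less RNA per cell cannot be told apart.

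The most abundant of the 7 genes differed strongly between the libraries. Gja1 and Gjb2 were far lower in cystic organoids, Gjb5 and Gjb6 were found in dense organoids alone, and Panx1 was at a like level in both. Gjb1 and Gjc1 were near the limit of detection in both libraries. A difference was called at 4-fold, a log2 ratio of 2 after a pseudocount of 1, in genes whose 2 values averaged at least 50. Gja1, Gjb2 and Panx1 had such a mean, and 2 of these 3 were called lower in cystic organoids, where 7.65% of the 11279 genes with such a mean were called. With no filter on the mean, 4 of 7 were at least 4-fold lower in cystic organoids, where 9.39% of all 20647 genes were.

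**Figure D1:**
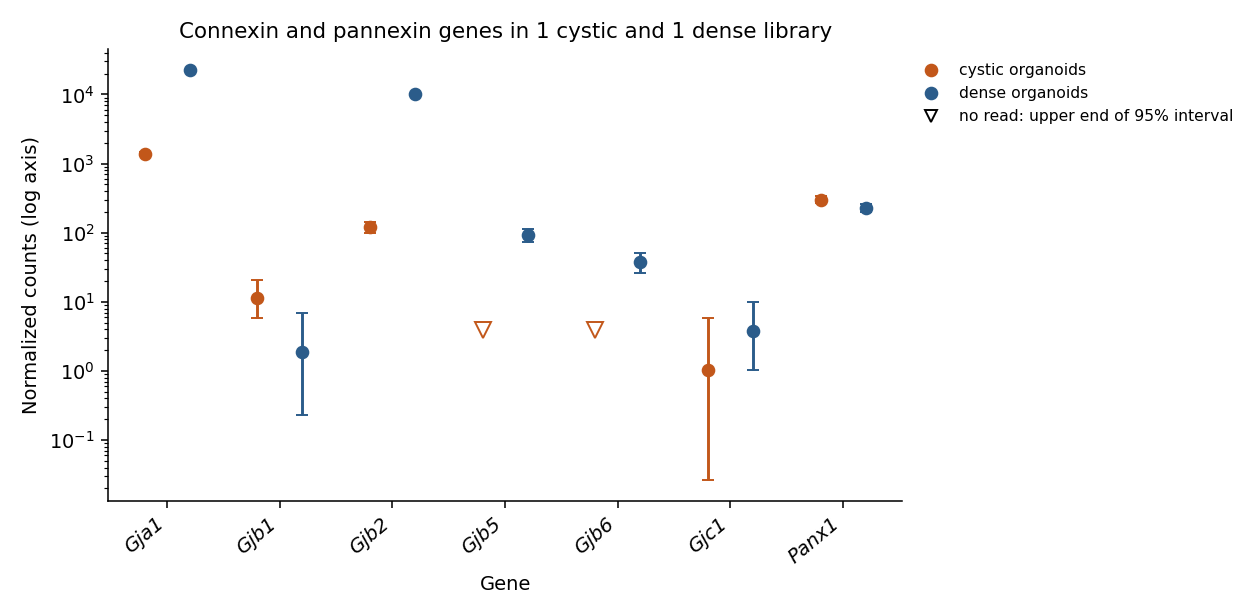
Normalized counts (log axis) of the 7 genes in 1 cystic library (orange) and 1 dense library (blue). Bars are exact 95% Poisson intervals, hidden where smaller than the point, and open triangles mark the upper end of that interval where no read was found. Gja1 and Gjb2 lie far lower in cystic organoids, while Panx1 lies slightly higher.

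Gja1 (ENSMUSG00000050953) encodes Cx43, the most widely expressed connexin. Gja1 had 1388 normalized counts in cystic organoids [1315 to 1465] and 22259 in dense organoids [21974 to 22547]. It was thus abundant in both libraries and 16.0-fold lower in cystic organoids (interval 15.2 to 17.0), a log2 ratio of -4.00. Among the 11279 genes with a mean of at least 50, 412 had a lower log2 ratio than Gja1.

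Gjb2 (ENSMUSG00000046352) encodes Cx26, a connexin of the inner ear, liver and several epithelia. Gjb2 had 119 normalized counts in cystic organoids [98.4 to 143] and 10101 in dense organoids [9909 to 10295]. It was 84.7-fold lower in cystic organoids (70.4 to 103), a log2 ratio of -6.39, and 231 genes had a lower ratio. Gjb2 stayed clearly detected in cystic organoids, with 114 reads.

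Because both genes were read in both libraries, their proportion could be compared without any scaling between libraries. Gjb2 gave 7.91% of the summed Gja1 and Gjb2 reads in cystic organoids (Clopper-Pearson interval 6.57 to 9.43) and 31.2% in dense organoids (30.7 to 31.7). The counting intervals did not overlap, so the Gjb2 deficit in the cystic library went beyond that of Gja1 in these libraries.

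Gjb6 (ENSMUSG00000040055) encodes Cx30, a close relative of Cx26 that forms mixed channels with it in the cochlea. Gjb6 is the next protein-coding gene to Gjb2 on chromosome 14 in RefSeq. It had no read in cystic organoids, where the floor of 3 reads is 3.14 normalized counts, and 37.3 in dense organoids [26.5 to 51.0]. Against that floor, Gjb6 was 11.9-fold lower in cystic organoids, a value that leaves out the counting error of the dense reads. In cystic organoids it gave 0 of 114 summed Gjb6 and Gjb2 reads, a share of 0% (Clopper-Pearson interval 0 to 3.18). In dense organoids that share was 0.368% (0.262 to 0.502), so a Gjb6 proportion like that of the dense library was below what the cystic depth could show.

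Gjb5 (ENSMUSG00000042357) encodes Cx31.1, a connexin of skin and trophoblast in the mouse. Gjb5 had no read in cystic organoids and 91.8 normalized counts in dense organoids [74.3 to 112]. It was at least 29.2-fold lower in cystic organoids. For both Gjb5 and Gjb6 a comparison is the set of 1468 genes with 30 to 100 normalized counts in the dense library, of which 7.22% had no read in the cystic library.

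**Figure D2:**
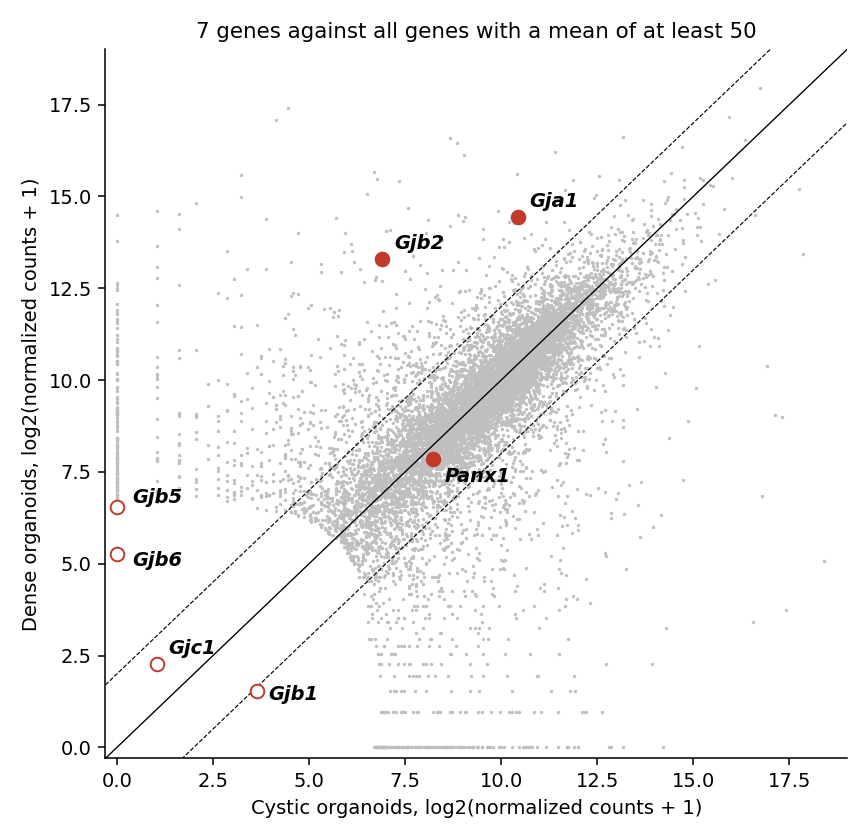
Each grey point is 1 of the 11279 genes with a mean of at least 50, with log2(normalized counts + 1) in cystic organoids on the x axis and in dense organoids on the y axis. The solid line marks equal values, dashed lines mark 4-fold differences, and red points are the 7 genes, filled where their own mean is at least 50. Gja1 and Gjb2 lie above the upper dashed line, Panx1 lies near the solid line, and Gjb5 and Gjb6 lie on the left edge because they had no read in cystic organoids.

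Gjb1 and Gjc1 were close to undetected. Gjb1 (ENSMUSG00000047797) encodes Cx32, the connexin of hepatocytes and myelinating Schwann cells, which also occurs in secretory glands. Gjb1 had 11.5 normalized counts in cystic organoids [5.74 to 20.6] and 1.91 in dense organoids [0.232 to 6.91], from 11 reads in cystic and 2 reads in dense organoids. The ratio was 6.02-fold higher in cystic organoids, with a counting interval from 1.31 to 55.9. Gjc1 (ENSMUSG00000034520), which encodes Cx45 of the cardiac conduction system and vascular smooth muscle, had 1.05 in cystic organoids [0.0265 to 5.83] and 3.82 in dense organoids [1.04 to 9.79]. These were 1 read in cystic and 4 reads in dense organoids, and their ratio of 3.65-fold lower in cystic organoids had an interval from 0.362 to 180.0, so no direction was detectable at this depth.

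Panx1 (ENSMUSG00000031934) was the member with the smallest difference. Panx1 had 299 normalized counts in cystic organoids [266 to 336] and 229 in dense organoids [201 to 260]. It was 1.30-fold higher in cystic organoids (1.09 to 1.55), a log2 ratio of 0.38. Of the 11279 genes with a mean of at least 50, 3471 had a higher ratio, so Panx1 lay within the bulk of genes.

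The order of the members within a library was compared per kilobase of annotated exon, since longer transcripts collect more reads. In cystic organoids Gja1 came first with 135 normalized counts per kilobase. Panx1 and Gjb2 followed with 49.6 each, and their counting intervals overlapped. Gjb1 had 6.74 and Gjc1 0.209 per kilobase, with Gjb5 and Gjb6 at 0. In dense organoids Gjb2 had 4198 and Gja1 2170 normalized counts per kilobase. This order turned when the longest transcript was used in place of all exons, since the annotated Gja1 exons cover 10257 bases and the longest Gja1 transcript 3889. Gja1 then had 5724 and Gjb2 4198 per kilobase, so the order of these 2 genes in dense organoids depends on the gene model. Gjb5 came next with 53.3 per kilobase of annotated exon, then Panx1 with 38.0 and Gjb6 with 13.9. Gjb1 with 1.12 and Gjc1 with 0.764 per kilobase had overlapping counting intervals.

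Of 20 connexin and pannexin genes listed, 12 had a row, and the rest could not be looked at. Besides the 7, the connexin and pannexin genes Gja4, Gja5, Gja6, Gjd3 and Panx2 were looked at, and all 5 were close to undetected. Their values ran from 0 to 6.28 normalized counts in cystic and from 0 to 8.60 in dense organoids. Gja4, a connexin gene of arterial endothelium, had the highest of these values in cystic organoids, at 6.28, and was without reads in dense organoids. Gja6, which encodes Cx33, had none of its reads in cystic organoids and the highest value in dense organoids, at 8.60. Gja5, which encodes Cx40 of atrial muscle and arterial endothelium, had 4.18 in cystic, against 0.956 in dense organoids, which is 4 reads in cystic and 1 read in dense organoids. Gja5 shares exon bases with Gpr89 on the opposite strand, so its few reads could belong to either gene.

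The genes nearest to each member over these 2 libraries were taken by distance in log2(value + 1). For Gja1 they were Ly6d, with 1284 normalized counts in cystic, against 19892 in dense organoids at a distance of 0.20, and Mxd1, with 1186 in cystic and 20316 in dense organoids at 0.26. For Gjb2 they were Klk14, with 106 in cystic, against 7148 in dense organoids at 0.53, and Lrp1, with 105 in cystic and 6772 in dense organoids at 0.61. For Panx1 they were Pex10 and Snx24, both at 297 in cystic organoids, with 233 and 226 in dense organoids and distances of 0.026. A likeness over 2 libraries describes only these 2 values.

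Genes for partners, trafficking and turnover of connexins were mostly at like levels in the libraries. Of 20 such genes, 19 had a mean of at least 50, and 17 of these were within 4-fold. One was at least 4-fold higher and 1 at least 4-fold lower in cystic organoids, near the shares of 7.86% and 7.65% among all genes, and the median log2 ratio was -0.047. Cav1, which encodes the caveolar protein caveolin that associates with Cx43, had 22.0 normalized counts in cystic [13.6 to 33.6], against 4958 in dense organoids [4824 to 5095], 226-fold lower in cystic organoids (147 to 365). Tjp3, which encodes the junction scaffold ZO-3, had 3265 in cystic [3152 to 3382], against 389 in dense organoids [352 to 429], 8.39-fold higher in cystic organoids (7.57 to 9.33). The scaffold ZO-1, which binds the tail of Cx43, differed less, as its gene Tjp1 had 1955 in cystic, against 2972 in dense organoids, 1.52-fold lower in cystic organoids (1.43 to 1.61). Nedd4, which encodes a ubiquitin ligase of Cx43, was the most abundant of these genes, with 16374 in cystic, against 13431 in dense organoids. Csnk1d, which encodes a kinase of Cx43, was second with 7251 in cystic, against 7367 in dense organoids, 1.02-fold lower in cystic organoids with an interval (0.983 to 1.05) that included 1.

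Pannexin channels release ATP. Genes for receptors of extracellular nucleotides and adenosine, and for enzymes that break nucleotides down, differed in both directions. Of 26 genes listed, 18 had a row and 10 had a mean of at least 50. Of these 10, 1 passed 4-fold as higher and 4 as lower in cystic organoids, where 7.86% and 7.65% of all 11279 genes did so. The 1 higher gene was Adora1, whose product senses adenosine and not ATP. The median log2 ratio of the 10 was -1.17, also -1.17 with genes at 0 put at 3 reads, against -0.033 over all genes. The difference of this list from other genes was not tested. Among the receptors, P2ry1, a receptor for ADP, had 149 normalized counts in cystic [125 to 175], against 1557 in dense organoids [1482 to 1635], 10.5-fold lower in cystic organoids (8.83 to 12.5). P2ry2, a receptor for ATP and UTP, had 309 in cystic, against 1062 in dense organoids, 3.44-fold lower in cystic organoids (3.02 to 3.93). The ATP-gated channel gene P2rx4 had 757 in cystic, against 448 in dense organoids, 1.69-fold higher in cystic organoids (1.50 to 1.90). Below that mean, the channel genes P2rx2 and P2rx6 had 27.2 and 43.9 in cystic organoids but were without reads in dense organoids. The UDP receptor gene P2ry6 was without reads in cystic organoids and had 26.8 in dense organoids.

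The 3 largest of these differences were in genes for making or sensing adenosine. Nt5e, which encodes the ectonucleotidase CD73 that makes adenosine from AMP, had 2.09 normalized counts in cystic [0.253 to 7.56], against 1804 in dense organoids [1723 to 1887]. From 2 reads in the cystic library, it was 862-fold lower there (238 to 7124). Adora1, the A1 adenosine receptor gene, had 674 in cystic organoids [623 to 728] while dense organoids had none of its reads. Against the floor of 3 reads, Adora1 was 235-fold higher in the cystic library. Adora2b, the A2B receptor gene, had no read in cystic organoids and 609.8 in dense organoids [563 to 659]. Against the floor of 3 reads, Adora2b was 194-fold lower in cystic organoids. These receptors signal through different G proteins, Adora1 lowering and Adora2b raising cyclic AMP. Enpp1, which encodes an enzyme that cleaves ATP to AMP, had 23.0 in cystic, against 371 in dense organoids, 16.1-fold lower in cystic organoids (10.5 to 26.0). Entpd3, which encodes an enzyme that breaks down ATP and ADP, had 868 in cystic, against 284 in dense organoids, 3.06-fold higher in cystic organoids (2.68 to 3.50).

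**Figure D3:**
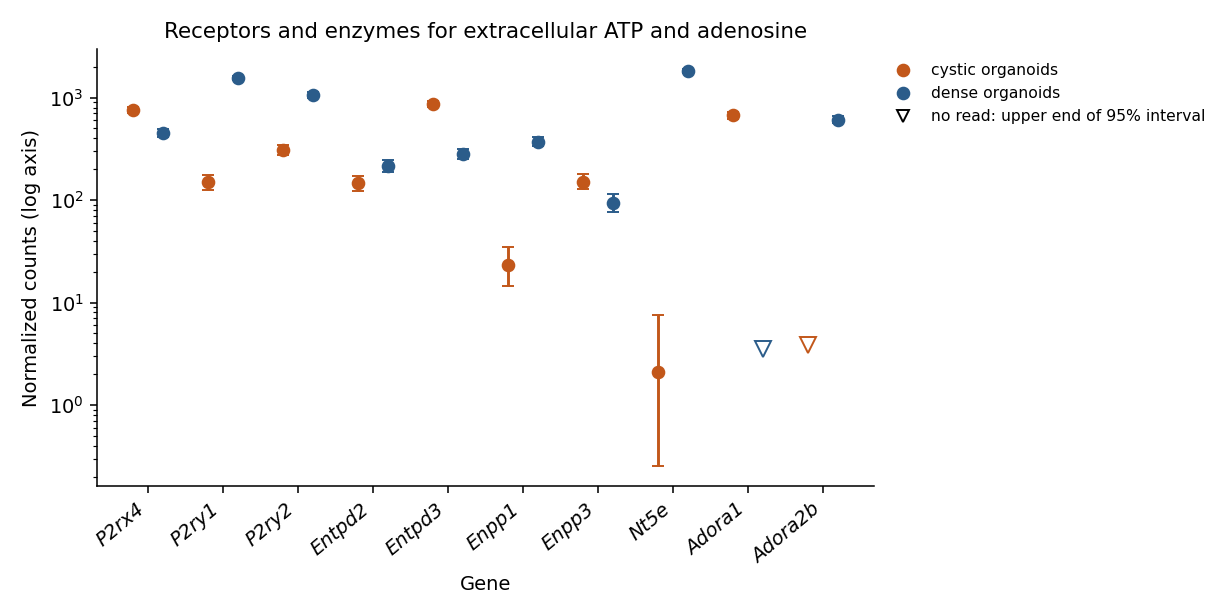
Normalized counts (log axis) of the 10 listed receptors and enzymes for extracellular ATP and adenosine with a mean of at least 50, in 1 cystic library (orange) and 1 dense library (blue). Bars are exact 95% Poisson intervals and open triangles mark the upper end where no read was found. Adora1 is present in cystic organoids alone and Adora2b in dense organoids alone, while Nt5e stands at 2.09 in cystic, against 1804 in dense organoids.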

How the data were processed

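The authors deposited 1 table with a normalized read signal per gene for each library, 1 cystic and 1 dense. Per the labels' protocols, RNA was amplified with Smart-seq v4, which copies whole transcripts by PCR. The submitters' processing notes name the tools TopHat and DESeq 1.32.0 and the build mm9. The read counter and gene models used by the authors are not stated there. Each deposited signal value is a whole number of reads divided by 1 size factor per library (0.956 cystic, 1.05 dense), for 100% of values within 0.001 read. Reads were recovered from it, and 2 spike-in rows, with 0 reads in cystic and 2 in dense organoids, were left out. PCR reads are not independent molecules, so intervals and floors cover counting error only. Folds are cystic against dense with exact Clopper-Pearson intervals. Against 0 reads, folds put that library at 3 reads and carry no interval, so they are not strict lower bounds. A count test needs replicates, so none was run on the recovered reads.

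The 7 genes and the other lists were chosen with earlier results of these data known. Named genes were all 7, listed genes past 4-fold (at most 4 each way), the 2 most abundant of each list, and the 2 nearest genes per member. Genes outside this rule, such as receptors and enzymes under 4-fold, were named after their values were seen. Some genes of the lists are not reported here. Exon lengths came from GENCODE release M21 (GRCm38), neighbouring genes and promoters from RefSeq GRCm38.p6. Calls were tested on simulated data that held counting error only, which cannot show how they hold between cultures or mice. Alternatives used other pseudocounts, filters, thresholds and scalings, with trimmed means from edgeR 4.0.16 (R 4.3.3), beside Python 3.11.15 and scipy 1.17.1.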

Additional observations from a re-analysis of the deposited data

How the results depend on the processing

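No paired analysis was possible because each group has 1 library. The 2 calls of Gja1 and Gjb2 as lower in cystic organoids held under every pseudocount, scaling, filter and threshold run. The log2 ratio ran from -4.00 to -3.96 for Gja1, from -6.40 to -5.91 for Gjb2 and from 0.32 to 0.41 for Panx1 over the pseudocounts and scalings. Those of Gjb5 (-7.53 to -1.50) and Gjb6 (-6.24 to -0.80) follow the pseudocount, because 1 value is 0, so folds against 3 reads are given in their place. With no filter on low values, which adds genes of few reads, 4 members were at least 4-fold lower and 1 higher in cystic organoids, 5 and 2 of the 12 connexin and pannexin genes looked at, and 1939 and 2681 of all genes, and of the ATP and adenosine genes 3 were higher and 6 lower. With a mean of at least 200, 561 genes were higher and 606 lower in cystic organoids by 4-fold, where 886 were higher and 863 lower with a mean of at least 50. At 2-fold, 1767 genes were higher and 1761 lower in cystic organoids, with 2 ATP and adenosine genes higher and 5 lower, and 1 connexin partner higher and 2 lower. At 10-fold, 544 genes were higher and 525 lower, and 0 connexin partners were higher and 1 lower. With the longest transcript as length, 2 members, Gja1 and Gjb2, changed places in dense organoids. Depth limits Gjb1 and Gjc1, with 11 and 1 reads in cystic and 2 and 4 reads in dense organoids.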
